A study of Arabidopsis thaliana with 18 samples.

Results

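The comparison set transcript levels of a Swedish (SW) ecotype of Arabidopsis thaliana against those of an Italian (IT) ecotype after 1 week at 4 °C. Ecotypes are natural accessions of the species, and these were studied for how their CBF pathway, a main route of the cold response, may differ. Seedlings of each ecotype were raised on soil for 18 days at 22 °C, with 12 h of light per day at 100 to 120 µmol m-2 s-1. They then spent 1 week at 4 °C in light of about 35 µmol m-2 s-1, and the entire aerial part was collected at ZT4, 4 h after lights on. Both 1-week groups thus shared temperature, light, age and hour, and the labels give the ecotype as what differed. Plants of each ecotype taken in the warm (22 °C, no cold) or after 2 weeks at 4 °C were used only to set the 1-week values in context. The labels do not say how many plants a library holds.

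Each group comprised 3 RNA sequencing libraries, and the deposited table holds, for every gene and group, 1 value made from all 3, in FPKM (sequenced fragments scaled to transcript length and library size). A gene was a member of the comparison when it reached 1 FPKM in SW or in IT after 1 week. In all, 18732 of 33557 listed genes did so. Of these, 163 were listed at exactly 0 in 1 of the 2 columns and were given no ratio, which left 18569 genes. Differences are log2 ratios of SW over IT, computed on FPKM + 1, and a gene was called higher or lower in SW at 2-fold, a log2 ratio of 1 or more or of -1 or less. The combined values do not show which of the 3 libraries carry a difference. No difference could be held against replicate spread, so no test or p-value is given, and the depth behind the values is unknown.

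Plants that meet low, non-freezing temperatures raise their freezing tolerance, a process called cold acclimation. Its best known branch runs through the CBF (DREB1) transcription factors, which bind a short promoter sequence, the CRT/DRE element with the core CCGAC, and switch on cold-regulated (COR) genes. COR proteins include dehydrins and other late embryogenesis abundant (LEA) proteins that protect membranes and enzymes during dehydration by ice, and enzymes that make raffinose and other compatible sugars. Salicylic acid and jasmonate, both defence hormones, also act in plants kept in the cold. As background from published work, the IT accession carries a CBF2 allele whose product is not functional.

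After 1 week of cold, 883 of 18569 genes (4.76%) were at least 2-fold higher in SW and 763 (4.11%) were at least 2-fold lower, 8.86% in all. The median log2 ratio over all genes was 0.01 and the median of its absolute size 0.27, so most genes differed little. The majority of higher over lower calls turned to 800 against 838 when the columns were scaled to 12 reference genes. Differences of 8-fold or more were present in 62 genes on the higher and 61 on the lower side. At the limit, 253 genes lay between log2 ratios of 1 and 1.1 in either direction and 328 between 0.9 and 1. Of the 1646 genes past 2-fold, 447 had less than 5 FPKM in both ecotypes.

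**Figure D1:**
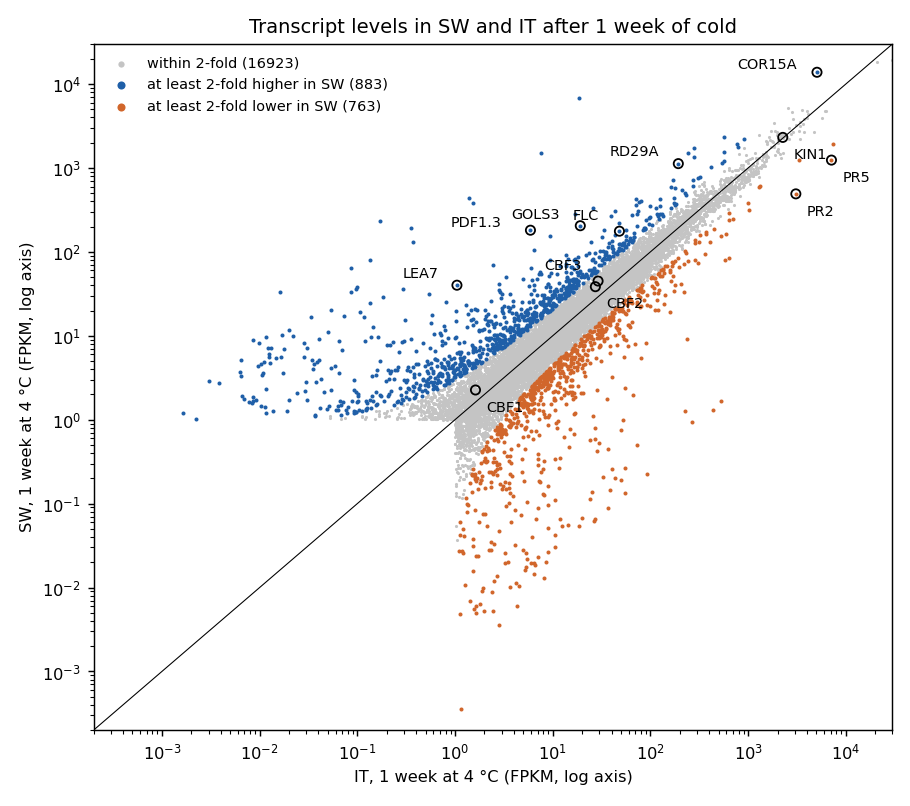
Each point is 1 of 18569 genes, with its FPKM in SW on the vertical and in IT on the horizontal axis, both on log scales, and the line marks equal values. Blue points are the 883 genes at least 2-fold higher in SW and orange points the 763 at least 2-fold lower. COR15A, RD29A, GOLS3 and LEA7 lie above the line, PR2 and PR5 below it, and KIN1 and the 3 CBF genes near it.

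The material fitted its label of aerial tissue. The 17 measured light-harvesting and photosystem genes summed to 36709 FPKM in SW and 36717 FPKM in IT. Of 9 root markers only SHR reached 1 FPKM, and the list summed to 5.62 FPKM in SW and 7.07 FPKM in IT. The 7 flower markers summed to 0.801 FPKM in SW and 1.15 FPKM in IT, and the 9 seed markers to 0.314 FPKM in SW and 0.178 FPKM in IT. All 12 reference genes lay within 2-fold, with log2 ratios from -0.43 to 0.47. FPKM summed over the table to 1004255 in SW and 1013445 in IT.

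The CBF genes themselves were close in the 2 ecotypes at this hour. CBF1, CBF2 and CBF3 lie side by side on chromosome 4, at 13021780 to 13022996, 13015250 to 13016235 and 13018010 to 13019400. CBF2 was at 38.5 FPKM in SW and 27.3 FPKM in IT (log2 ratio 0.48). CBF3 was at 44.9 FPKM in SW and 29.1 FPKM in IT (0.61), and CBF1 at 2.26 FPKM in SW and 1.62 FPKM in IT (0.32). All of them were higher in SW, and none passed 2-fold. Their relatives CBF4, DDF1 and DDF2 stayed below 1 FPKM in both ecotypes. Of 14 known regulators of CBF transcription, 13 lay within 2-fold, where 91.1% of all genes lay, and the list median was 0.12. ICE1, which encodes a transcriptional activator of CBF3, was at 37.5 FPKM in SW and 36.0 FPKM in IT. CAMTA3, another activator, was at 16.6 FPKM in SW and 14.0 FPKM in IT. The 1 regulator past 2-fold was MYB15, a repressor of CBF genes, at 4.97 FPKM in SW and 1.76 FPKM in IT (1.11).

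The genes that protect the cell in the cold separated the ecotypes far more than the CBF genes did. Of 19 measured protectant genes 13 were at least 2-fold higher in SW, 0 were lower and 6 lay within 2-fold, against 4.76% of all genes on the higher side. Their median log2 ratio was 1.45, against 0.01 over all genes, and 18 of 19 ratios were above 0. Because whole shoots were measured, fewer cells of a type and less RNA per cell cannot be told apart here or in any result that follows.

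Among the most abundant protectants, COR15A, whose product shields chloroplast membranes, was at 13809.5 FPKM in SW and 5067 FPKM in IT (1.45). COR47, a dehydrin gene, was at 1490.4 FPKM in SW and 242 FPKM in IT (2.62). The dehydrin gene LTI30 reached 1364 FPKM in SW and 278 FPKM in IT (2.29). In linear terms COR15A was 2.73 times, and COR47 6.15 times, as abundant in SW as in IT. RD29A, a widely used reporter of the pathway, was at 1126 FPKM in SW and 193 FPKM in IT (2.54). ERD10, another acidic dehydrin gene, was at 711 FPKM in SW and 171 FPKM in IT (2.05). COR413IM1, which encodes a protein of the chloroplast inner envelope, was at 389 FPKM in SW and 76.5 FPKM in IT (2.33). The dehydrin gene RAB18, which abscisic acid induces, was lower in level, at 71.5 FPKM in SW and 13.6 FPKM in IT (2.31).

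The largest protectant ratio belonged to LEA7 (chromosome 1, 19619724 to 19621534), at 40.1 FPKM in SW and 1.05 FPKM in IT (4.33). LEA4-5 was at 12.8 FPKM in SW and 1.32 FPKM in IT (2.57). Both are genes of LEA proteins that accumulate in drying tissue. ERD14 (1.28), LEA14 (1.27), COR413PM1 (1.47) and ERD7 (1.06) were also past 2-fold; ERD7 fell just inside it, at 0.98, under scaling to reference genes. The KIN genes stood apart from these. KIN1 was at 2312 FPKM in SW and 2263 FPKM in IT (0.03). KIN2 was at 4888 FPKM in SW and 3591 FPKM in IT (0.44). COR15B, the neighbour and close relative of COR15A, was at 2749 FPKM in SW and 1703 FPKM in IT (0.69). Such relatives may share reads, which could shift the levels within each COR15 or KIN pair.

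**Figure D2:**
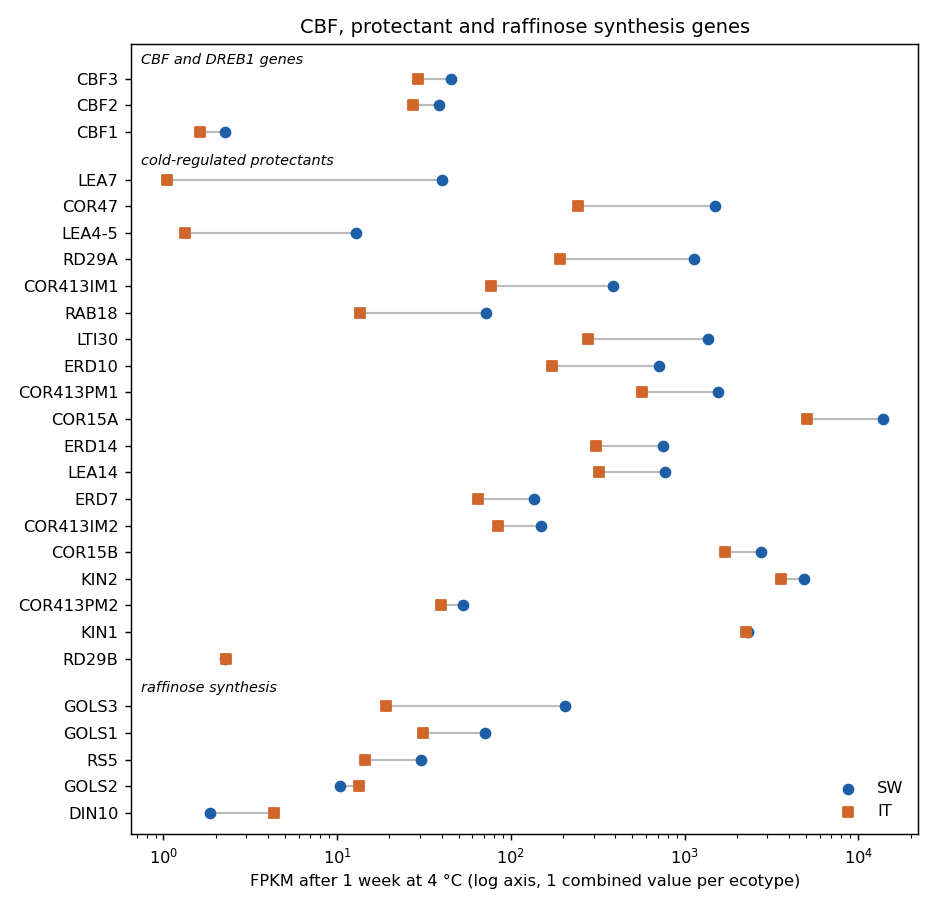
FPKM after 1 week at 4 °C on a log axis for the CBF, protectant and raffinose synthesis genes with a ratio, with SW as circles, IT as squares and a line joining the 2 combined values of a gene. LEA7, RD29A and GOLS3 show wide gaps with SW higher, the CBF genes show narrow gaps, and the KIN1 and RD29B symbols overlap.

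The upstream sequences of COR15A, RD29A and GOLS3 are shown because these genes differed strongly and hold the CRT/DRE core that CBF proteins bind. Each window is the 300 bases before the annotated gene start in TAIR10.1 (RefSeq), read 5′ to 3′ on the gene's strand; it is reference sequence, not that of SW or IT. Capitals mark each CCGAC or its reverse complement GTCGG. The windows are chr2:17712331-17712630 on the minus strand for COR15A, chr5:21240417-21240716 on the plus strand for RD29A and chr1:3019339-3019638 on the plus strand for GOLS3.
COR15A: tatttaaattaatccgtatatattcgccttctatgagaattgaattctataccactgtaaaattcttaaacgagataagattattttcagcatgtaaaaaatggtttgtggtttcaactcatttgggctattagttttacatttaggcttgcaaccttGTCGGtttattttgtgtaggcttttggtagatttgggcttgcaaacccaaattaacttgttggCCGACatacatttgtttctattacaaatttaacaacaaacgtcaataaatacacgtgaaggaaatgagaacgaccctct
RD29A: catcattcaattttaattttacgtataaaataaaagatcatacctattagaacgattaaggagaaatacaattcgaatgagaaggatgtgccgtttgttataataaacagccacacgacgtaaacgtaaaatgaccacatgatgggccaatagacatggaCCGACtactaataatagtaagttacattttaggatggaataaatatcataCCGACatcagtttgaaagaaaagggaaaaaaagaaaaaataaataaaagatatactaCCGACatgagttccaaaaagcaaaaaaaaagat
GOLS3: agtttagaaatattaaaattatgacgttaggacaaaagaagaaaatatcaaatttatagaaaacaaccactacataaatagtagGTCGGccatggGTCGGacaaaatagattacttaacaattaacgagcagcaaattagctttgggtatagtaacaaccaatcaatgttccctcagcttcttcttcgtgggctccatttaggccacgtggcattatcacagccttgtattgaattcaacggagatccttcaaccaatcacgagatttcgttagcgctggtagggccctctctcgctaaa

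COR15A and GOLS3 held 2 copies of the core and RD29A held 3. Searched on both strands of the same 300-base windows, CCGAC was present in 15.3% of 18436 windows of all genes with a ratio, in 20.2% of 882 windows of genes higher in SW and in 13.0% of 754 windows of genes lower in SW. Among genes higher in SW that were within 2-fold in the warm, 22.1% of 426 windows held it, and 26.1% of the 176 that were also higher after 2 weeks. Of the protectants, 10 of 19 windows held the core: 8 of the 13 genes higher in SW and 2 of the 6 within 2-fold. The evening element core AATATCT, which clock proteins bind, was in 15.9% of windows of genes higher in SW, 12.5% of those lower in SW and 12.0% of all. This core too was more frequent in the 426 windows (18.1%) and in the 176 (19.3%). It was in 4 of 19 protectant windows, 3 of the 13 higher in SW and 1 of the 6 within 2-fold. The core of the abscisic acid response element, ACGTGG, was in 12.4% of windows of genes higher in SW, 8.09% of those lower in SW and 9.82% of all. For ACGTGG the shares were 11.7% of the 426 windows and 12.5% of the 176. Of the protectant windows 7 of 19 held ACGTGG, 3 of the 13 higher in SW and 4 of the 6 within 2-fold. The shares were not tested, and a match is not shown to be a bound site.

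In raffinose synthesis 3 of 5 measured genes were at least 2-fold higher in SW and 0 lower, with a median of 1.03. For this and the lists that follow, the shares of all genes were 4.76% higher and 4.11% lower, with a median of 0.01. GOLS3, a galactinol synthase gene of the first committed step to raffinose, was at 205 FPKM in SW and 19.1 FPKM in IT (3.35). Its relative GOLS1 was at 70.7 FPKM in SW and 31.3 FPKM in IT (1.15). The raffinose synthase gene RS5 was at 30.3 FPKM in SW and 14.4 FPKM in IT (1.03), but at 0.96 under scaling to reference genes. GOLS2 was the more abundant of the members within 2-fold, at 10.4 FPKM in SW and 13.3 FPKM in IT (-0.32). In the list of sucrose, starch and sugar transport genes 1 of 20 was at least 2-fold higher in SW and 0 lower, but 14 of 20 ratios were above 0 and the median was 0.57. The 1 gene was SUS1, a sucrose synthase gene, at 285 FPKM in SW and 72.2 FPKM in IT (1.97). Of the genes within 2-fold, the glucan phosphatase gene SEX4 was at 231 FPKM in SW and 117 FPKM in IT (0.97), and the cytosolic glucanotransferase gene DPE2 at 73.4 FPKM in SW and 38.0 FPKM in IT (0.93). BAM3, the main beta-amylase gene of leaves, was at 1441 FPKM in SW and 957 FPKM in IT (0.59). In the proline pathway the first enzyme and the last went opposite ways. P5CS1 was at 332 FPKM in SW and 163 FPKM in IT (1.03, and 0.96 under scaling to reference genes), and it was also higher in SW in the warm (1.12). P5CR was at 55.9 FPKM in SW and 138 FPKM in IT (-1.29).

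Genes of transcription factors that respond early to cold were mixed. In SW 5 of the 18 measured were at least 2-fold higher and 1 was at least 2-fold lower, and the list median was 0.45. Among all genes 4.76% were higher and 4.11% lower, with a median of 0.01. The ethylene response factor genes RAP2.6 (5.31 FPKM in SW and 0.623 FPKM in IT, 1.96) and ERF5 (9.52 FPKM in SW and 2.24 FPKM in IT, 1.70) led. RAP2.1, a repressor gene that CBF proteins induce, was at 15.4 FPKM in SW and 5.14 FPKM in IT (1.42). ZAT6 (1.37) and DEAR1 (1.34) were also higher, and CRF2, a cytokinin response factor gene, was lower at 5.84 FPKM in SW and 14.8 FPKM in IT (-1.21). The most abundant member, RAV1, was within 2-fold at 75.6 FPKM in SW and 60.0 FPKM in IT. In the abscisic acid and dehydration list 22 of 24 genes lay within 2-fold (median 0.29). The exceptions were the alcohol dehydrogenase gene ADH1, at 347 FPKM in SW and 126 FPKM in IT (1.46), and the abscisic acid hydroxylase gene CYP707A3, at 0.555 FPKM in SW and 2.77 FPKM in IT (-1.28).

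Some of the strongest 1-week differences lay outside the lists, in genes that were low in both ecotypes in the warm. CIPK25, the gene of a calcium-signalling protein kinase, was at 155 FPKM in SW and 9.41 FPKM in IT (3.90), and in the warm at 0.528 FPKM in SW and 0.681 FPKM in IT. After 2 weeks it stood at 281 FPKM in SW and 10.2 FPKM in IT (4.65), so the gap was there at both cold times. DIN11, the gene of a dark-inducible oxygenase, was at 106 FPKM in SW and 6.44 FPKM in IT (3.85). The nitrate transporter gene NRT1.8 was at 19.9 FPKM in SW and 1.02 FPKM in IT (3.37). LCR67, a defensin-like gene, was at 36.5 FPKM in SW and 0.296 FPKM in IT (4.86). LEA7, DIN11, NRT1.8 and LCR67 had in common that the gap was not there after 2 weeks, when their log2 ratios were -0.21, -0.58, -0.49 and -0.04. AT5G47130, of the Bax inhibitor family (3.55), AT4G22470, of the lipid transfer protein family (3.47), and AT1G76470, a Rossmann-fold protein gene (3.17), were also far apart. They completed the largest ratios among genes of at least 5 FPKM whose warm log2 ratio lay between -1 and 1. This choice took in genes under 1 FPKM in both ecotypes in the warm, which counts of genes within 2-fold in the warm leave out.

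**Figure D3:**
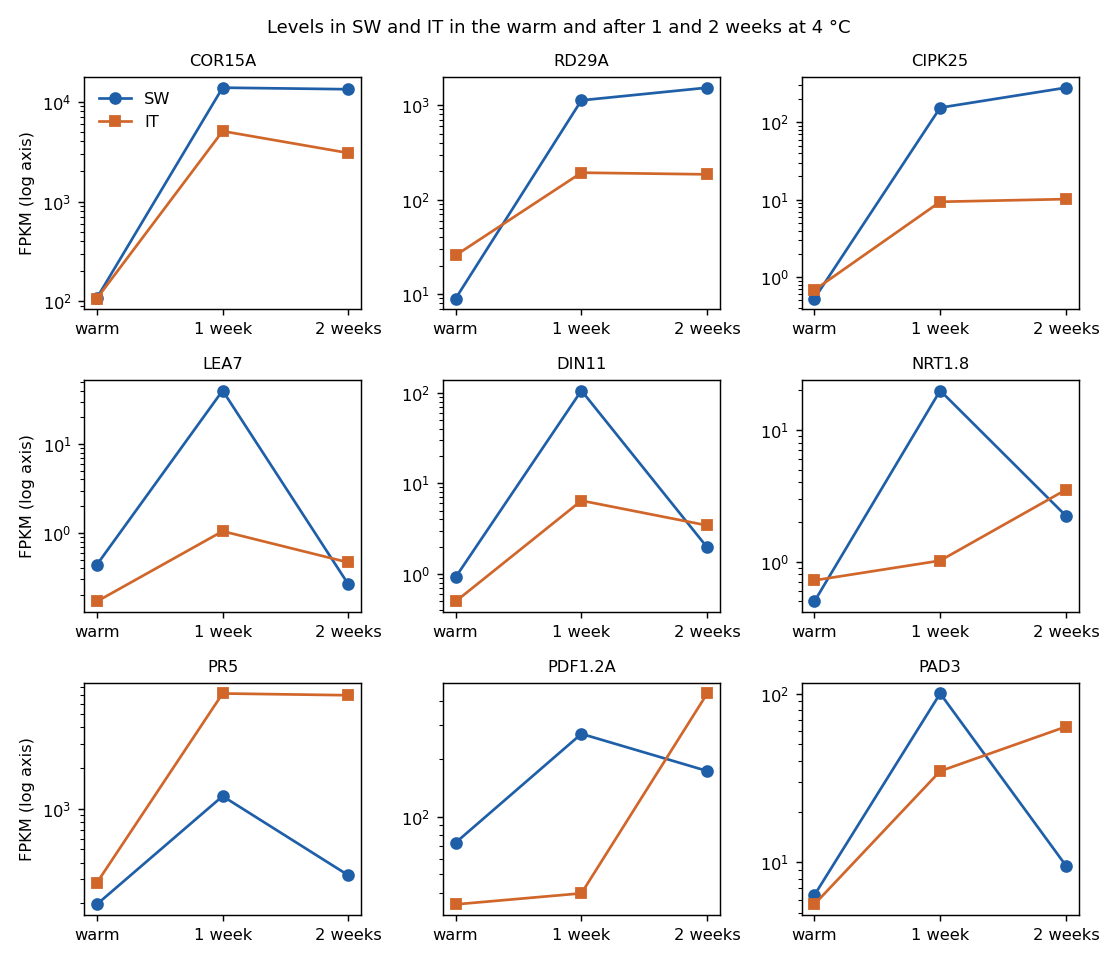
FPKM on log axes for 9 genes in the warm and after 1 and 2 weeks at 4 °C, with SW as circles and IT as squares, 1 combined value each. COR15A, RD29A and CIPK25 stay higher in SW at both cold times, LEA7, DIN11 and NRT1.8 show their widest gap, with SW higher, at 1 week and lie below SW's 1-week level in both ecotypes at 2 weeks, PR5 is lower in SW throughout, and PDF1.2A and PAD3 are higher in SW at 1 week and lower at 2 weeks.

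Phenylpropanoid and flavonoid genes went both ways. Of 26 measured 5 were at least 2-fold higher in SW, 5 were lower and 16 passed neither limit (median 0.00). That compares with 4.76% higher and 4.11% lower among all genes. On the higher side were the entry enzyme gene PAL1, at 91.2 FPKM in SW and 33.9 FPKM in IT (1.4), the flavonol synthase gene FLS1, at 87.7 FPKM in SW and 36.9 FPKM in IT (1.23), and the flavonol regulator gene MYB111, at 33.8 FPKM in SW and 15.1 FPKM in IT (1.12). The anthocyanin regulator genes PAP1 (1.67) and PAP2 (1.05) were higher as well, PAP1 at 12.6 FPKM in SW and 3.28 FPKM in IT. On the lower side were genes that act on anthocyanins and a regulator. AT4G14090, an anthocyanin glucosyltransferase gene, was at 5.63 FPKM in SW and 16.7 FPKM in IT (-1.42). UGT79B1 (-1.3), 5MAT (-1.27) and TT19 (-1.08), which act on or carry anthocyanins, were lower too, with TT19 at 13.2 FPKM in SW and 29.0 FPKM in IT. The regulator gene TT8 was at 1.15 FPKM in SW and 3.33 FPKM in IT (-1.01, and -0.99 under quantile normalization). All 5 lower genes were lower in SW in the warm too, from -1.12 for TT8 to -3.05 for UGT79B1. CHS, of the first committed flavonoid step, was at 615 FPKM in SW and 316 FPKM in IT (0.96).

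Several lists had no member past 2-fold, where 91.1% of all genes also lay within it. All 24 measured circadian clock genes lay within 2-fold, with log2 ratios from -0.65 for RVE1 to 0.50 for BOA (median 0.17). The morning gene CCA1 was at 184 FPKM in SW and 161 FPKM in IT, and the evening gene TOC1 at 68.8 FPKM in SW and 55.3 FPKM in IT. The same held for 17 of 17 light-harvesting and photosystem genes (-0.46 to 0.40, median 0.06), 15 of 15 membrane lipid genes (-0.75 to 0.65, median 0.16) and 8 of 8 glucosinolate hydrolysis genes (-0.40 to 0.91, median 0.02). For RNA chaperones and ribosome assembly factors, 15 of 15 were within 2-fold and the median was -0.29. The cold-shock domain gene CSP2 was at 56.3 FPKM in SW and 79.4 FPKM in IT (-0.49), and the fibrillarin gene FIB2 at 212 FPKM in SW and 408 FPKM in IT (-0.95). Of 9 carbon fixation genes (median -0.22) 1 passed 2-fold, the Rubisco small subunit gene RBCS2B, at 290.2 FPKM in SW and 642 FPKM in IT (-1.14); small subunit genes are near copies of each other and may share reads. Photoprotection and antioxidant genes had a median of 0.44, with 4 of 15 past 2-fold on the higher side and 0 on the lower. These were the early light-induced protein genes ELIP1 (285 FPKM in SW and 124 FPKM in IT, 1.19) and ELIP2 (118 FPKM in SW and 40.1 FPKM in IT, 1.53), the catalase gene CAT3 (1798 FPKM in SW and 787 FPKM in IT, 1.19) and the ascorbate peroxidase gene SAPX (1.04, and 0.97 under scaling to reference genes).

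Salicylic acid defence genes stood lower in SW. Of 25 measured 10 were at least 2-fold lower in SW, against 4.11% of all genes, 2 were higher and 13 lay within 2-fold (median -0.81). The pathogenesis-related genes that serve as markers of this hormone were far apart. PR5 was at 1240.3 FPKM in SW and 7128 FPKM in IT (-2.52). PR2, a glucanase gene, was at 491 FPKM in SW and 3079 FPKM in IT (-2.65), and PR1 at 1246 FPKM in SW and 3336 FPKM in IT (-1.42). The 2 genes whose enzymes inactivate salicylic acid by hydroxylation led the list. DLO1 was at 3.22 FPKM in SW and 40.7 FPKM in IT (-3.31), and DMR6 at 32.9 FPKM in SW and 221 FPKM in IT (-2.71). The synthesis gene ICS1 was at 8.4 FPKM in SW and 16.6 FPKM in IT (-0.90), and the regulators EDS1 (-0.15), PAD4 (-0.32) and NPR1 (-0.34) were closer to equal. AED1 (-1.88), NIMIN1 (-1.26), ACD6 (-1.19), SARD1 (-1.16) and WRKY70 (-1.04) made up the remaining lower genes. Against the direction of the list, AT5G52810, of a Rossmann-fold family, was at 18.6 FPKM in SW and 3.85 FPKM in IT (2.02), and the Nudix hydrolase gene NUDT6 at 43.4 FPKM in SW and 14.7 FPKM in IT (1.5). The chaperones of the endoplasmic reticulum, which fold secreted proteins, were below 0 in 7 of 7 genes with a median of -0.56. Of these BIP2, at 97.3 FPKM in SW and 231 FPKM in IT (-1.24), passed 2-fold.

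Jasmonate and ethylene defence genes stood higher in SW at the same time. Their median was 0.90 and 19 of 20 ratios were above 0, with 9 past 2-fold on the higher side and 1 on the lower. Over all genes 4.76% were higher and 4.11% lower. In the warm 6 of the 20 were already at least 2-fold higher in SW and 1 was lower. Warm log2 ratios were 3.05 for PDF1.3, 2.32 for PDF1.2B, 1.05 for PDF1.2A and 0.98 for PDF1.2C. The defensin genes had large gaps: PDF1.3 was at 181 FPKM in SW and 5.92 FPKM in IT (4.72), PDF1.2A at 270.2 FPKM in SW and 39.7 FPKM in IT (2.73), and PDF1.2B at 425 FPKM in SW and 71.8 FPKM in IT (2.55). PDF1.2C was at 85.2 FPKM in SW and 33.8 FPKM in IT (1.31); the PDF1.2 genes are near copies and may share reads. The basic chitinase gene CHIB was at 70.5 FPKM in SW and 2.46 FPKM in IT (4.37). Their regulator gene ORA59 was at 10.14 FPKM in SW and 3.0 FPKM in IT (1.48). The synthesis gene LOX2 was at 1195 FPKM in SW and 569 FPKM in IT (1.07), just within 2-fold (0.999) under scaling to reference genes. The repressor gene JAZ10 (1.3) and the storage protein gene VSP1 (1.63) were also higher, while VSP2 was at 1.52 FPKM in SW and 7.13 FPKM in IT (-1.69). The master regulator gene MYC2 was within 2-fold at 24.3 FPKM in SW and 13.0 FPKM in IT (0.85). Of the RPP5 cluster, a group of resistance genes, 3 of 3 measured were higher in SW, with RPP5 at 33.7 FPKM in SW and 2.90 FPKM in IT (3.15), SNC1 at 1.2 and RPP4 at 1.01 (0.94 under scaling to reference genes). The gap was not particular to the cold: for RPP5, SNC1 and RPP4 the log2 ratios were 2.99, 1.00 and 0.98 in the warm. After 2 weeks they were 3.06, 0.88 and 0.77. These genes are close copies, so their values may share or lose reads.

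Glucosinolates are the sulfur-rich defence compounds of the cabbage family, and few of their genes passed 2-fold. The aliphatic list had a median of 0.03, with 3 of 25 genes past 2-fold on the higher side and 1 on the lower. Over all genes 4.76% were higher and 4.11% lower. In the warm the aliphatic list also had 3 genes at least 2-fold higher in SW and 1 lower. AOP2, which makes alkenyl side chains, was at 541 FPKM in SW and 209 FPKM in IT (1.37). The side-chain oxidase genes FMOGSOX4 (49.6 FPKM in SW and 14.0 FPKM in IT, 1.76) and FMOGSOX3 (55.4 FPKM in SW and 18.4 FPKM in IT, 1.54) were higher too. MAM1, of side-chain elongation, was at 248 FPKM in SW and 707 FPKM in IT (-1.51). In the indolic list 1 of 11 was lower, CYP79B3, at 15.4 FPKM in SW and 38.0 FPKM in IT (-1.25), and the list median was -0.38. Of the sulfur limitation genes, APR3 of sulfate reduction was at 99.2 FPKM in SW and 34.2 FPKM in IT (1.51), and LSU1 at 1.5 FPKM in SW and 5.12 FPKM in IT (-1.29), with 7 of 9 within 2-fold (median 0.35).

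Genes of flowering and vernalization went both ways. Of 19 measured 2 were at least 2-fold higher in SW and 4 lower, against 4.76% and 4.11% of all genes. FLC, the central repressor that vernalization silences, was at 176 FPKM in SW and 48.2 FPKM in IT (1.85). Its relative MAF3 was at 82.0 FPKM in SW and 14.2 FPKM in IT (2.45). MAF4 and MAF5 went the other way, with MAF4 at 0.101 FPKM in SW and 3.55 FPKM in IT (-2.05) and MAF5 at 0.412 FPKM in SW and 3.17 FPKM in IT (-1.56). SOC1, a flowering promoter that FLC represses, was at 27.3 FPKM in SW and 61.4 FPKM in IT (-1.14), and AGL24, another promoter, at 12.1 FPKM in SW and 32.3 FPKM in IT (-1.34). The remaining 13 of 19 genes lay within 2-fold, among them SVP, a repressor, at 70.8 FPKM in SW and 43.6 FPKM in IT (0.69). VIN3, which starts the silencing of FLC in long cold, was low, at 1.67 FPKM in SW and 0.423 FPKM in IT (0.91, and 1.51 with a pseudocount of 0.25). FT, the mobile flowering signal, was listed at 0 in SW and at 0.609 FPKM in IT.

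Genes of cell wall expansion leaned lower in SW. Their median was -0.85, against 0.01 over all genes, with 2 of 10 past 2-fold on the lower side and 0 on the higher. The shares of all genes, for this and the other lists of this paragraph, were 4.11% lower and 4.76% higher. The expansin gene EXPA1 was at 13.5 FPKM in SW and 58.5 FPKM in IT (-2.04), and EXPA11 at 13.8 FPKM in SW and 36.7 FPKM in IT (-1.35). EXPA10, the most abundant expansin gene of the list, was at 80.0 FPKM in SW and 61.7 FPKM in IT (0.37). Water channel genes of the vacuole membrane differed in the same direction: TIP2 was at 42.0 FPKM in SW and 204 FPKM in IT (-2.26), and GAMMA-TIP at 32.03 FPKM in SW and 109 FPKM in IT (-1.74). Beside these, the markers of epidermis and guard cells were below 0 in 9 of 10 genes with a median of -0.52, and summed to 258 FPKM in SW and 350 FPKM in IT. Of them MUTE (0.699 FPKM in SW and 2.73 FPKM in IT, -1.14) and SPCH (2.57 FPKM in SW and 6.36 FPKM in IT, -1.04), which drive the stomatal lineage, were past 2-fold. The 5 vein markers lay within 2-fold (median 0.03). The part of these markers in the cell wall result was not tested. Of 12 gibberellin genes 11 lay within 2-fold (median 0.21), and the DELLA gene RGL2 was at 3.34 FPKM in SW and 7.72 FPKM in IT (-1.01). Senescence markers (median 0.60) were above 0 in 6 of 7 measured. Past 2-fold was the regulator gene NAC6, at 12.7 FPKM in SW and 3.67 FPKM in IT (1.55). The 1 marker below 0 was SAG13, at 67.9 FPKM in SW and 167 FPKM in IT (-1.28). Heat shock genes were low, with 4 of 8 measured, a median of 0.76 and the highest level, of HSP70, at 2.41 FPKM in SW and 1.22 FPKM in IT. HSP17.6II was past 2-fold, at 1.68 FPKM in SW and 0.102 FPKM in IT (1.28).

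**Figure D4:**
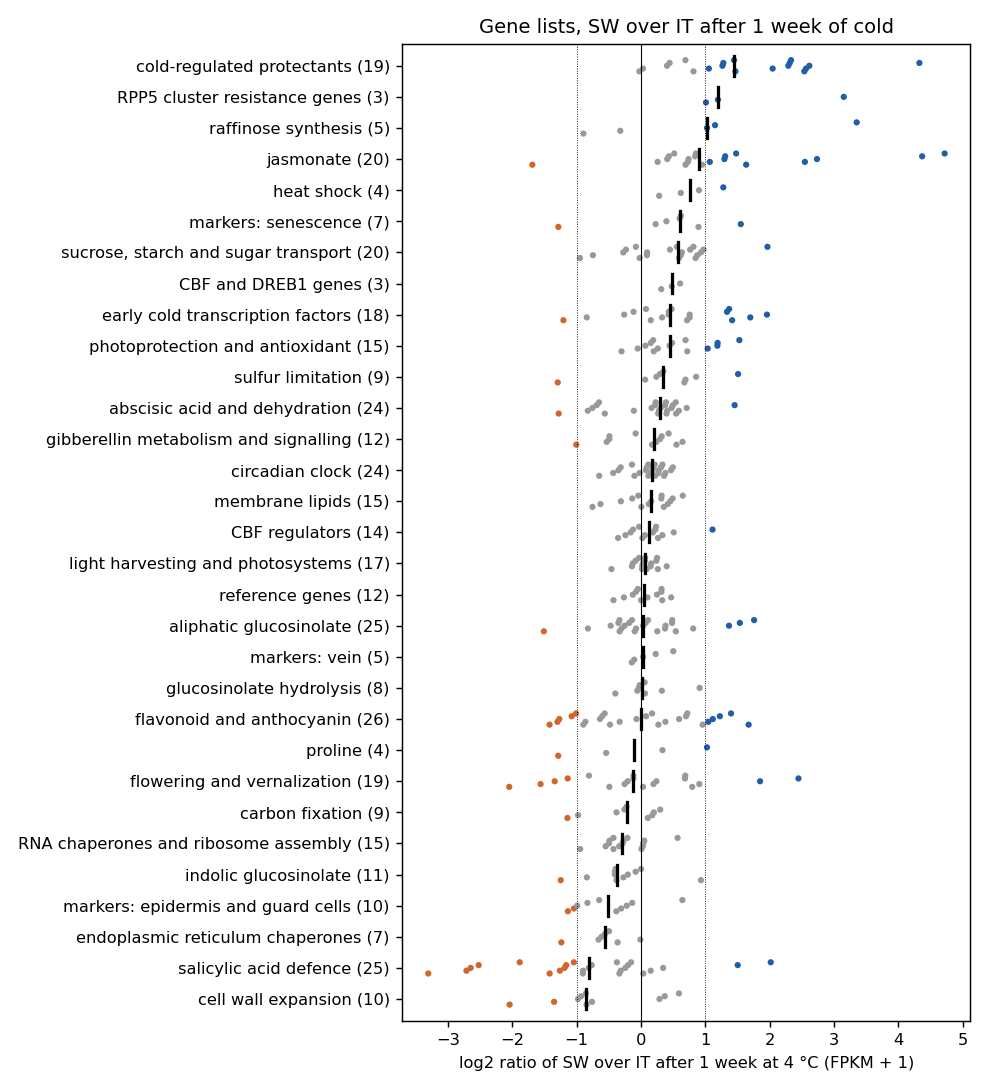
Log2 ratio of SW over IT after 1 week at 4 °C for each measured member of 31 gene lists, ordered by list median (black bars), with the number measured in parentheses. Blue points are at least 2-fold higher in SW, orange points at least 2-fold lower, and grey points within the dotted 2-fold lines. Medians run from 1.45 for the protectants to -0.85 for cell wall expansion.

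The warm and 2-week columns come from other libraries and show which 1-week differences stood there as well. In the warm 2.79% of genes were at least 2-fold higher in SW and 4.39% lower, 7.18% in all, and after 2 weeks 4.09% were higher and 7.5% lower, 11.6% in all. Of the 883 genes higher in SW at 1 week, 298 were also higher in the warm, 426 were within 2-fold and 33 were at least 2-fold lower there. The rest were under 1 FPKM in both ecotypes in the warm (110) or listed at 0 in 1 of them (16). After 2 weeks 470 of the 883 were higher, 273 within 2-fold and 66 at least 2-fold lower, with 64 under 1 FPKM in both and 10 listed at 0 in 1. Of the 763 genes lower in SW at 1 week, 365 were also lower in the warm and 497 after 2 weeks, while 10 and 2 were at least 2-fold higher in the warm and after 2 weeks. The same side held both in the warm and after 2 weeks for 247 of the higher and 305 of the lower genes.

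The protectant genes were not higher in SW in the warm. The list median of SW over IT was -0.23 in the warm, 1.45 after 1 week and 1.31 after 2 weeks, against 0.03, 0.01 and 0.03 over all genes. In the warm and after 2 weeks the list medians also took in genes below 1 FPKM there, and those over all genes did not. In the warm 4 of 19 were at least 2-fold lower in SW and 0 higher. RD29A was at 8.97 FPKM in SW and 25.7 FPKM in IT in the warm (-1.42), and LTI30 at 2.48 FPKM in SW and 6.75 FPKM in IT (-1.16). COR15A was level in the warm, at 108 FPKM in SW and 107 FPKM in IT. Within each ecotype, 1 week of cold over warm gave a list median of 3.24 in SW and 0.89 in IT, against 0.05 in SW and 0.02 in IT over all genes. Those cold responses use the same 1-week columns as the comparison of ecotypes, so they restate it from the warm baseline and add no independent evidence.

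The other lists had time courses of their own. The salicylic acid list had a median of -0.52 in the warm, -0.81 after 1 week and -2.41 after 2 weeks, with 4, 10 and 21 of 25 genes at least 2-fold lower in SW. PR1 showed this course, with SW at 719.8 FPKM in the warm, 1246 FPKM after 1 week and 870.02 FPKM after 2 weeks, against 867, 3336 and 11644 FPKM in IT. The jasmonate list peaked at 1 week, with medians of 0.19, 0.90 and -0.28 in the warm and after 1 and 2 weeks. Of its 20 genes 6, 9 and 2 were at least 2-fold higher in SW, and 1, 1 and 5 lower. The cell wall expansion list had medians of 0.10, -0.85 and -0.53, and the endoplasmic reticulum chaperones -0.11, -0.56 and -1.39. FLC was higher in SW in all 3 conditions, with log2 ratios of 1.39, 1.85 and 1.77. SOC1 was lower in SW in all 3, with ratios of -3.01, -1.14 and -1.18.

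**Figure D5:**
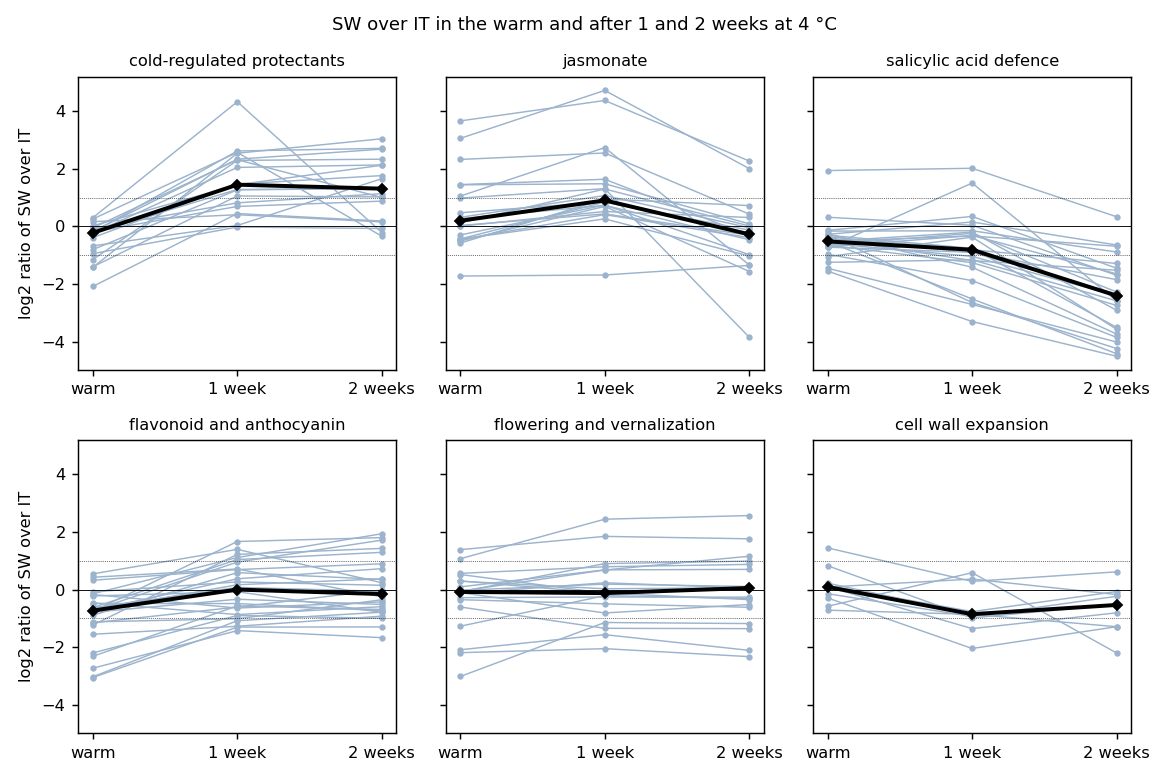
Log2 ratio of SW over IT in the warm and after 1 and 2 weeks at 4 °C for the members of 6 gene lists (thin lines) and their median (thick line with diamonds), with dotted lines at 2-fold. Protectant medians go above 0 at both cold times, the jasmonate median is highest at 1 week (0.90), and the salicylic acid median is lowest at 2 weeks (-2.41).

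The largest ratios in either direction belonged mostly to genes with no well known role, most of them as far apart in the warm. AT2G25510 (chromosome 2, 10856271 to 10857217), which encodes an uncharacterized protein, was at 6819.99 FPKM in SW and 18.6 FPKM in IT (8.44), with 8.15 in the warm. AT1G24388 (7.64), AT3G62530 (7.44), AT3G62460 (7.27), AT5G33251 (7.17), AT1G19550 (6.59), AT1G24370 (6.15), QQS (5.89), AT5G35935 (5.15), AT5G45490 (5.09), AT3G44070 (5.06) and AT5G49640 (4.97) followed, each also past 2-fold in the warm and after 2 weeks. QQS, a gene found only in this species that affects starch, was at 63.3 FPKM in SW and 0.0863 FPKM in IT. An exception was the transcribed pseudogene AT1G69140, at 433 FPKM in SW and 1.38 FPKM in IT after 1 week (7.51), 638 FPKM in SW and 2.19 FPKM in IT after 2 weeks, and in the warm 0.0589 FPKM in SW and 0 in IT. On the lower side stood the retroelement-derived SADHU5-1 (chromosome 4, 660810 to 661698), at 1.69 FPKM in SW and 533 FPKM in IT (-7.63). AT2G15128 (-7.56), AT4G38932 (-7.11), AT3G24516 (-6.64), AT2G14285 (-5.63), AT3G24517 (-5.63), AT3G45050 (-5.45), AT4G20480 (-5.42), AT3G24542 (-5.12), AT1G34418 (-5.11), AT3G43574 (-5.04) and AT5G27889 (-4.87) came with it. Better known genes among them were the thionin gene THI2.2, at 0.224 FPKM in SW and 91.5 FPKM in IT (-6.24), PCC1, a pathogen- and clock-controlled gene, at 0.201 FPKM in SW and 43.8 FPKM in IT (-5.22), and the wall-associated kinase gene WAK2, at 0.208 FPKM in SW and 32.6 FPKM in IT (-4.80). A changed or missing gene copy and low transcription cannot be told apart by these values.

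Among genes within 2-fold in the warm, those furthest below IT included AT3G49340, of the cysteine protease family, at 0.442 FPKM in SW and 36.6 FPKM in IT (-4.70). The chitinase gene AT2G43570 was at 81.0 FPKM in SW and 577 FPKM in IT (-2.82). The small nucleolar RNA genes SNOR77 (-2.90) and SNOR111 (-2.78), the long non-coding RNA AT3G24518 (-2.75), and AT1G53542 (-2.99) and AT2G29263 (-2.54), of unknown function, were the others, with PR2.

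Of the 163 genes listed at exactly 0 in 1 ecotype after 1 week, 88 were at 0 in SW and 75 in IT. Of these, 71 were at 0 in all 3 conditions of that ecotype, and 29 of the 71 had at least 1 FPKM in every condition of the other. The 6 most abundant of the 71 were the small nucleolar RNA genes AT4G02555 (3479 FPKM in IT), AT2G43141 (895 FPKM in IT), AT2G43138 (396 FPKM in IT), AT2G43137 (335 FPKM in IT) and AT1G74453 (329 FPKM in SW), and the microRNA precursor MIR775 (245 FPKM in IT). Of 152 such genes with an annotated length, 83 were at most 300 bases long. LHCB1.1 and RBCS1A, abundant genes of every leaf, were listed at 0 in both ecotypes, so a listed 0 can be a failed estimate and was not read as absence.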

How the data were processed

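Whole aerial parts were sequenced in 18 libraries, 3 for each of 6 groups; the comparison described used the 6 libraries of SW and IT after 1 week at 4 °C. The deposited table holds FPKM values, 1 per gene and group, which the authors made from the libraries of that group, per the file headers. TopHat 1.4.1, Cufflinks 2.1.1 and Cuffdiff, with TAIR10 as genome build, are listed in the submitters' processing notes. Neither their settings nor how libraries were combined is stated there. Libraries followed Illumina's standard protocol, per the labels. No per-library values were used here, so the planned limma fit, leave-one-out fits and p-values could not be computed, and both values and their ratio are given in their place. P-values would in any case measure only the spread between samples the labels number as replicates.

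FPKM was used as deposited. Genes with at least 1 FPKM in either column were kept, and log2 ratios were taken of FPKM + 1, which understates differences of low genes. A gene listed at 0 in a compared column got no ratio. Calls were made at 2-fold (log2 ratio of 1). Ratios in the warm and after 2 weeks used the same formula, and a gene listed at 0 in 1 of their columns got none. List and family medians there took in every gene kept at 1 week, also below 1 FPKM. Shares and medians over all genes used the limit of 1 FPKM in their own condition. Counts of called genes in these conditions set apart genes under 1 FPKM in both ecotypes there. Gene names and positions are those of RefSeq's TAIR10.1 annotation (32813 loci matched, 744 not). Motifs were counted in the 300 bases before each annotated gene start. Close relatives (COR15A and COR15B, KIN1 and KIN2, PDF1.2A, PDF1.2B and PDF1.2C, the RBCS, GSTU and RPP5 cluster genes) may share reads.

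The comparison, the 34 gene lists (476 loci) and the rules were chosen with earlier results of these data known. Named genes were CBF1 to CBF3, the 15 highest and 15 lowest ratios among genes reaching 5 FPKM in a column, the 8 largest in each direction among genes within 2-fold in the warm, up to 4 members of each list past 2-fold with the most abundant member within it, and the 6 most abundant genes at 0 in all 3 columns of 1 ecotype. For the 8 largest, genes under 1 FPKM in both ecotypes in the warm counted as within 2-fold there if their warm log2 ratio lay between -1 and 1. Other genes, and the 11 families defined by words in the RefSeq product name (members annotated in other words are not counted), were chosen after their values were seen. The code that makes the calls was run on simulated data with 200 planted differences of log2 1.5 in size. These lay past the 2-fold limit by design, so the run checked the code only and says nothing of replicate spread. Analyses used Python 3.11.15, pandas 2.3.3, numpy 2.4.6 and matplotlib 3.10.9. The 9 alternatives tried were 2 other pseudocounts, 2 other filters, 3 scalings, protein-coding genes alone, and ratios for genes listed at 0.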

Additional observations from a re-analysis of the deposited data

Results flagged for a closer look

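The log2 ratio of SW over IT was past 2-fold in opposite directions at 1 week and in another condition for 24 named genes. These differences between conditions were not tested, since each rests on combined values. Some of these genes were named after their values were seen, so the count of 24 depends on that choice. Of all 883 genes higher in SW at 1 week, 33 (3.74%) were at least 2-fold lower in the warm and 66 (7.47%) after 2 weeks. Over all genes 4.39% were lower in SW in the warm and 7.5% after 2 weeks. Of all 763 genes lower at 1 week, 10 were at least 2-fold higher in the warm and 2 after 2 weeks.

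In the warm, 10 genes stood on the other side. Genes higher in SW at 1 week and lower in the warm were DIN2 (2.97 at 1 week, -2.57 in the warm), UGT74E2 (3.08 and -1.49), RD29A (2.54 and -1.42), ERD7 (1.06 and -1.40), UGT74F2 (2.46 and -1.31), FLS1 (1.23 and -1.23), LTI30 (2.29 and -1.16) and DEAR1 (1.34 and -1.01). Lower at 1 week and higher in the warm were the transcription factor gene WRKY30 (-1.93 and 1.65) and RBCS2B (-1.14 and 1.07).

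After 2 weeks, 17 genes that had been higher in SW at 1 week were lower. The defensin genes were PDF1.2C (1.31 at 1 week, -3.85 at 2 weeks) and PDF1.2A (2.73 and -1.34). PAD3 (1.5 and -2.61) and CYP71A13 (1.4 and -1.96) encode enzymes of camalexin, the main phytoalexin of the species. Glutathione transferase genes were GSTU25 (2.16 and -1.70) and GSTU8 (2.76 and -1.36), and glucosyltransferase genes UGT74E2 (3.08 and -1.87) and UGT74F2 (2.46 and -1.62). The others were WRKY75 (1.1 and -2.92), NUDT6 (1.5 and -2.59), DIN2 (2.97 and -2.57), Prx37 (2.47 and -2.47), ELI3-2 (2.74 and -2.13), MYB15 (1.11 and -1.30), TH8 (2.56 and -1.10), SIS (3.01 and -1.06) and NATA1 (2.67 and -1.05).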

How the results depend on the processing

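No paired analysis was possible because each group has 1 combined value, and leaving out a replicate, limma and a replicate block were not run for the same reason. Across the 9 alternatives the counts of genes higher and lower in SW stayed within 1.5 times the main counts: from 629 with a filter of 5 FPKM to 1228 with a pseudocount of 0.1 on the higher side, and from 570 to 1138 with the same settings on the lower side. The higher share of calls was 53.6%, and 48.8% under scaling to reference genes. No scaling moved a list median by more than 0.13. Of 475 gene ratios none changed direction past 2-fold; 7 fell just within it under scaling to reference genes or quantile normalization, and 16 passed it under a smaller pseudocount or those scalings. Counts that moved more were small. With a pseudocount of 0.1, genes on opposite sides were 72 (higher at 1 week, lower in the warm), 120 (lower at 2 weeks), 16 (lower at 1 week, higher in the warm) and 4 (higher at 2 weeks). With 0.25 the first, second and last were 60, 106 and 4, and the last was 6 with ratios for genes listed at 0. Without a low-value filter the raffinose median was 0.42. A 5 FPKM filter left fewer genes and gave medians of 0.72 for early cold transcription factors, 0.33 for proline, 0.22 for flowering and -0.49 for gibberellin genes. The heat shock median was 1.31 with a pseudocount of 0.1 and 1.17 with 0.25, its 4 genes lying at or below 2.41 FPKM. The cause of the other moves was not tested. Depth per library is unknown, which limits what can be said of genes below about 5 FPKM.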

Other observations

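Several gene families were counted by words in the annotated product name, so that members annotated in other words are left out. Over all genes 4.76% were at least 2-fold higher in SW and 4.11% lower. Of 48 glutathione S-transferase genes, which act in detoxification, 11 were higher and 3 lower. GSTU24 was at 219 FPKM in SW and 47.9 FPKM in IT (2.17), and in the warm its log2 ratio was 0.07. Of 135 genes named as glucosyltransferases or glycosyltransferases 23 were higher (17.0%) and 7 lower (5.19%), with UGT73B4 at 10.5 FPKM in SW and 0.609 FPKM in IT (2.84). Of 119 genes named cytochrome P450 14 were higher (11.8%) and 9 lower (7.56%). Across all families, 58 genes of at least 5 FPKM were higher in SW at 1 week and at least 2-fold lower in SW at 2 weeks. Without the limit of 5 FPKM these were 66 of 883 higher genes (7.47%). That share was near the 7.5% of all genes that were at least 2-fold lower in SW at 2 weeks. PAD3 is one of the 58, at 100.1 FPKM in SW and 34.7 FPKM in IT after 1 week.

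In other families lower calls outnumbered higher ones. Cysteine-rich receptor-like kinase genes were lower in SW in 10 of 30 (33.3%) and higher in 0, with CRK7 at 9.40 FPKM in SW and 35.7 FPKM in IT (-1.82). Some of the 10 were also at least 2-fold lower in SW in the warm, such as CRK14 (-4.74) and CRK7 (-1.23). Others were not, such as CRK4 (-0.95). The family median was -0.41 at 1 week, -0.23 in the warm and -1.55 after 2 weeks. Lipid-transfer protein genes were lower in 12 of 56 (21.4%) and higher in 5 (8.93%), and genes named as aquaporins or intrinsic proteins lower in 5 of 25 and higher in 1. Of 50 WRKY factor genes 6 were lower and 2 higher, although their median was 0.14. The 350 genes named as ribosomal proteins had a median log2 ratio of -0.33 at 1 week, against 0.36 in the warm and 0.23 after 2 weeks. Of these 12 were lower (3.43%) and 5 higher (1.43%), both shares below those over all genes. Disease resistance protein genes went both ways, 12 of 91 higher and 13 lower. The 13 were at least 2-fold lower in the warm too, from -1.01 for AT1G31540 to -4.05 for AT5G36930. Of the 12, some were also at least 2-fold higher in the warm, such as RPP5 (2.99), and some were not, such as RPP4 (0.98). Of 14 genes named as defensins 5 were higher and 1 lower, and of 147 named F-box 4 were higher and 6 lower.

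Called genes lay next to each other on the chromosomes more often than genes at large. Of 882 genes higher in SW with a chromosome position, 22.7% had an adjacent kept gene that was also higher, against 9.14% of all genes, and of 754 lower genes 18.17% had a lower neighbour, against 7.91%. The longest runs held 5 genes, among them CRK12, CRK13, AT4G23215, CRK14 and CRK15 on chromosome 4 (lower in SW) and AT5G24200 to AT5G24230 on chromosome 5 (higher in SW). Pseudogenes were past 2-fold in 81 of 184 (44.0%), against 8.23% of protein-coding genes. The shares past 2-fold were even across the 5 chromosomes, from 8.55% to 9.55%.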
